A study of Mus musculus with 4 samples.

Results

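A set of 10 genes of the naive pluripotency network, Esrrb, Tfcp2l1, Nr5a2, Klf2, Klf5, Tbx3, Zfp42, Sall4, Dppa4 and Dppa5a, was followed through the day 12 RNA-seq libraries of wild-type and Zfp57-/- JB1 cells. They were listed by name, with earlier results of these data known, and make up 10 of the 55602 genes of the bulk count table. The question put to them was whether transcripts of the ground-state network differed in level between the genotypes after neural differentiation, and how their 2 parental alleles contributed. All 10 were higher in both Zfp57-/- libraries than in either wild-type library. Apart from Dppa4, the rise ran from 3.24-fold for Klf5 to 277-fold for Dppa5a. Dppa4 was nearly absent from wild-type cells, and its ratio of 1168 rests on 1 wild-type count.

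Naive pluripotency is the state of the inner cell mass and of ESCs held in an undifferentiated state, in which Pou5f1, Sox2 and Nanog work with a second layer of transcription factors. LIF acting through Stat3, and inhibition of Gsk3, which relieves repression by Tcf7l1, keep genes such as Esrrb, Klf2, Tfcp2l1 and Tbx3 active. During neural differentiation this layer is normally shut down early, and Sox2 alone among the core factors stays on in neural progenitors.

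JB1 ESCs are hybrid, the maternal genome being JF1 and the paternal genome C57BL/6 (B6). Both groups, 2 wild-type and 2 Zfp57-/- libraries, came from ESCs maintained with the Gsk3 inhibitor CHIR99021 at 3 µM. The ESCs were changed to differentiation medium and given 1 µM cyclopamine, an inhibitor of sonic hedgehog signalling, from day 2 to day 10. Cells were harvested at day 12 and labelled neural precursor cells (NPCs). The authors call the mutant cells neural precursor-like and only partly differentiated. They report a fall of Nanog and Pou5f1 from the ESC state in both genotypes by qRT-PCR. By immunofluorescence they report loss of Pou5f1 protein in all cells of both genotypes, and a fall of Pou5f1 in a further Zfp57 knockout clone. Their RNA-seq comparison with undifferentiated cells also gave generally lower ESC markers in both genotypes. No library of undifferentiated ESCs and no protein was used here, so a fall from the ESC state was not measured. The Zfp57-/- cells derive from JB1 and stand for 1 mutant line, so that the genotype and any other difference of that line cannot be told apart. The libraries are labelled as biological duplicates. The cross was made in 1 direction, and parent of origin and strain of an allele therefore cannot be told apart either.

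The libraries held between 7663520 and 10337082 assigned fragments. In the separate allele table, 2837013 to 3826604 counts per library were assigned to an allele. Zfp57, the inactivated gene, had 392 and 249 counts in wild-type libraries against 158 and 144 in Zfp57-/- libraries (log2 fold change -1.19 ± 0.32 SE, adjusted p = 0.0225 by edgeR's quasi-likelihood test). This count covers the whole gene and not the deleted stretch alone, so it checks the labels only in part. Wild-type replicates differed more from each other than Zfp57-/- replicates, with a median absolute log2 difference of 0.33 against 0.14. Of 8 neural progenitor and neuron markers, 7 fell in Zfp57-/- cells (Pax6, Sox1, Nes, Dcx, Tubb3, Map2 and Hes5). Among all 19995 genes tested, 14.6% fell at an adjusted p under 0.05 (edgeR). The summed level of the 8 markers was 1646 and 1950 CPM (counts scaled by TMM library size) in wild-type and 304 and 287 CPM in Zfp57-/- libraries. The call of Nes was lost with either Zfp57-/- library left out.

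Promoters were available for 5 of the 10 genes in the RefSeq annotation of GRCm38.p6, in 7 windows that include alternative starts of Esrrb and Nr5a2. A window of each of 4 genes is shown, without those of Nr5a2 and the alternative window of Esrrb. It holds the 250 bases before the start, 5′ to 3′ on the gene's strand. Capitals mark matches to any of 8 motifs searched on both strands: the octamer bound by Pou5f1 (ATGCAAAT), a SOX motif (ATTGTT), the Esrrb motif (AAGGTCA), a KLF motif (CCNCNCCC), a STAT motif (TTCNNNGAA), a TCF motif (CTTTGAT) and the Zfp57 motif in its T form (TGCCGC) and its G form (GGCCGC). The windows are chr8:43307010-43307259 on the minus strand for Zfp42, chr8:72318812-72319061 on the plus strand for Klf2, chr12:86360867-86361116 on the plus strand for Esrrb and chr1:118627695-118627944 on the plus strand for Tfcp2l1.
Zfp42: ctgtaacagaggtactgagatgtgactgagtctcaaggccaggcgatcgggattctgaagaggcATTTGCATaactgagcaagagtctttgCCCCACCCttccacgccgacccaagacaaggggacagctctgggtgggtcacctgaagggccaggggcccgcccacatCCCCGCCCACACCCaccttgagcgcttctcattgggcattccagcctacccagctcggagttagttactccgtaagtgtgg
Klf2: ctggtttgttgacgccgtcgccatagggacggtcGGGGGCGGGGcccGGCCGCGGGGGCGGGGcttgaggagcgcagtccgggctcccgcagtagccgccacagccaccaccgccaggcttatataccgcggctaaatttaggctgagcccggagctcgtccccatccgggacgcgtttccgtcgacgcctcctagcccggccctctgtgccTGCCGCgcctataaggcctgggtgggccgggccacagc
Esrrb: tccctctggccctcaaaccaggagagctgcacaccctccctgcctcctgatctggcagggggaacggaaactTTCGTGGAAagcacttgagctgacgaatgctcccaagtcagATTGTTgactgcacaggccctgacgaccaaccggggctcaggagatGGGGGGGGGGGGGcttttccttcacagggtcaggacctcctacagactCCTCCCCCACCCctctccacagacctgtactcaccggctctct
Tfcp2l1: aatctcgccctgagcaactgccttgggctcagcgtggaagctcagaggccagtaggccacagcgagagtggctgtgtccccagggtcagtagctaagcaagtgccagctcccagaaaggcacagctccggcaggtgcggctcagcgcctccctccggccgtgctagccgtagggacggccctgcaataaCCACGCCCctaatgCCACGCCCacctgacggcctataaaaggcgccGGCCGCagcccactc

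A KLF motif was present in 6 of the 7 windows, and in 45.9% of all 32851 windows of this length in the annotation. The first window of Nr5a2 held no match to any motif searched. The octamer was found in the Zfp42 window from base -186 to base -179 counted from the start, and in 1.6% of all windows. It lies on the strand opposite to that of the gene, so the printed window shows its reverse complement, ATTTGCAT. The Esrrb window held a STAT motif (7.02% of all windows) and a SOX motif (9.42%), and part of its KLF matches overlap each other in a run of G. The Zfp57 motif was found in the Klf2 window, in its T form from base -38 to base -33 and in its G form from base -203 to base -198, next to KLF matches, and in the Tfcp2l1 window in its G form from base -15 to base -10. Either form was present in 21.6% of all windows, the T form in 8.68% and the G form in 16.1%. No window held the Esrrb motif (4.08% of all windows) or the TCF motif (3.21%). The Klf2 and Tfcp2l1 windows contained 71.2% and 65.2% G and C, the Zfp42 window 58.4%, and the first window of Nr5a2 43.2%, against a median of 52.4%.

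Between the genotypes, all 10 genes passed an adjusted p of 0.05 in the higher direction. Of the 19995 genes tested, 13% did so, and 33.7% had both Zfp57-/- libraries above both wild-type libraries. The 10 genes were chosen with earlier results of these data known, so the comparison with all genes is not independent of those results. The median log2 fold change of the 10 genes was 5.01, beside -0.01 over all genes tested. Together they summed to 110 and 164 CPM in wild-type and to 1547 and 1497 CPM in Zfp57-/- libraries. Genes entered the test with more than 8 counts over the 4 libraries, which 9 of the 10 reached by their wild-type counts alone, Dppa4 being the exception. In bulk RNA, a larger number of cells that express a gene and more RNA of it per cell cannot be told apart.

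**Figure D1:**
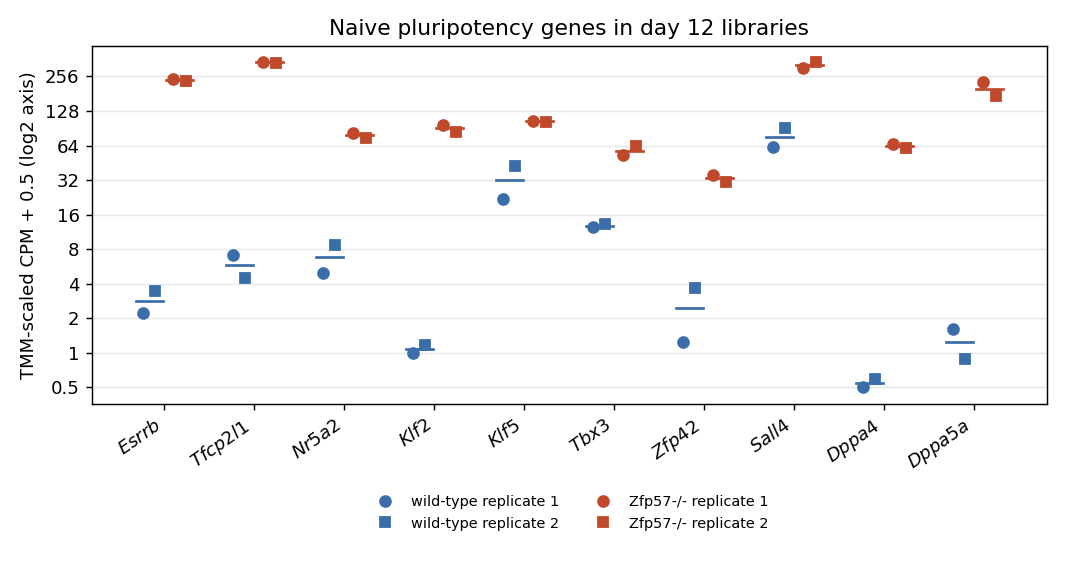
TMM-scaled CPM plus 0.5 (log2 axis) of the 10 naive pluripotency genes in each library, blue for wild-type and red for Zfp57-/-, with circles for replicate 1, squares for replicate 2 and a line at each mean. For each of the 10 genes both red points lie above both blue points, with the smallest distance for Klf5. The largest distance is that of Dppa5a, which holds with 0.5 added, since Dppa4 has the larger ratio without it.

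Esrrb and Nr5a2 are orphan nuclear receptors, and Tfcp2l1 is a factor of the grainyhead family downstream of LIF and Stat3. Esrrb (chr12:86361117-86521628, plus strand; positions of whole genes are on GRCm38) was counted 14 and 31 times in wild-type and 2267 and 2290 times in Zfp57-/- libraries, or 1.73 and 2.96 against 243 and 234 CPM. Both wild-type libraries were close to the bottom of the scale, and the groups did not overlap (log2 fold change 6.63 ± 0.29 SE, adjusted p = 1.7e-06, edgeR). Its level per length moved from the 18.4th percentile of the tested genes in wild-type to the 93.9th in Zfp57-/- cells. Tfcp2l1 (chr1:118627945-118685168, plus strand) had 53 and 42 counts in wild-type libraries against 3169 and 3298 in Zfp57-/- libraries, or 6.56 and 4.01 against 340 and 337 CPM. Its Zfp57-/- replicates were nearly equal and lay far above both wild-type values (log2 fold change 6.02 ± 0.28, adjusted p = 1.8e-06, edgeR). Nr5a2 (chr1:136842571-136960448, minus strand) had 36 and 85 counts in wild-type libraries against 760 and 729 in Zfp57-/- libraries, or 4.46 and 8.11 against 81.6 and 74.5 CPM. Its change was smaller than that of Esrrb or Tfcp2l1 in value, with wild-type replicates that differed 1.82-fold (log2 fold change 3.61 ± 0.29, adjusted p = 2.0e-05, edgeR).

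Klf2 and Klf5 are zinc finger factors that, together with Klf4, bind GC-rich promoters and share part of their targets in ESCs. Klf2 (chr8:72319033-72321656, plus strand) had 4 and 7 counts in wild-type libraries against 889 and 824 in Zfp57-/- libraries, or 0.495 and 0.668 against 95.4 and 84.2 CPM. The wild-type values lay near the level that 3 counts make, 0.371 and 0.286 CPM in these libraries, and the groups were far apart (log2 fold change 7.21 ± 0.31, adjusted p = 1.7e-06, edgeR). Klf5 (chr14:99298691-99315036, plus strand) had 174 and 440 counts in wild-type libraries against 971 and 1005 in Zfp57-/- libraries, or 21.5 and 42.0 against 104 and 103 CPM. Its wild-type replicates differed 1.95-fold and its Zfp57-/- replicates hardly at all, and the groups still did not overlap (log2 fold change 1.70 ± 0.29, adjusted p = 0.0020, edgeR). Klf4, the remaining KLF factor of the ESC network, did not pass the test. It had 500 and 1404 counts in wild-type libraries against 956 and 1321 in Zfp57-/- libraries, and these ranges overlapped (log2 fold change 0.28 ± 0.32, adjusted p = 0.56, edgeR). Its change was 0.95 without wild-type replicate 2, which passed the test, and -0.20 without wild-type replicate 1.

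Tbx3 is a T-box repressor that supports self-renewal of ESCs and is also used in extraembryonic endoderm. The gene (chr5:119670669-119684724, plus strand) had 96 and 134 counts in wild-type libraries against 487 and 611 in Zfp57-/- libraries, or 11.9 and 12.8 against 52.3 and 62.5 CPM. The replicates of both genotypes were close, and the groups were separated (log2 fold change 2.21 ± 0.22, adjusted p = 7.8e-05, edgeR).

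Zfp42, also known as Rex1, is a zinc finger protein that arose from a copy of Yy1 and is a common marker of the naive state, and Sall4 is a spalt-type zinc finger factor that partners with Pou5f1 and Nanog. Zfp42 (chr8:43295063-43306980, minus strand) had 6 and 33 counts in wild-type libraries against 327 and 298 in Zfp57-/- libraries, or 0.743 and 3.15 against 35.1 and 30.5 CPM. The wild-type replicates differed 4.24-fold, more than those of the other 8 genes with counts in both, and the groups did not overlap (log2 fold change 4.0 ± 0.45, adjusted p = 0.00019, edgeR). The size of this change rests on which wild-type library is used, being 5.44 without wild-type replicate 2 and 3.35 without wild-type replicate 1. Sall4 (chr2:168748332-168767943, minus strand) had 496 and 946 counts in wild-type libraries against 2806 and 3327 in Zfp57-/- libraries, or 61.4 and 90.3 against 301 and 340 CPM. Per length it was the most abundant of the 10 in wild-type cells, and it rose by 2.08 ± 0.23 on the log2 scale (adjusted p = 0.00017, edgeR).

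Dppa4 is a chromatin-associated SAP-domain protein of early embryos and germ cells that pairs with Dppa2, and Dppa5a encodes a KH-domain RNA-binding protein of ESCs. Dppa4 (chr16:48283733-48294237, plus strand) had 0 and 1 counts in wild-type libraries against 615 and 588 in Zfp57-/- libraries, or 0 and 0.0955 against 66.0 and 60.1 CPM. The wild-type level was at the limit of detection, and the ratio of the summed levels was 1168 with an exact 95% counting interval from 209 to 46188, which covers counting error only (edgeR adjusted p = 1.8e-06). The fitted log2 fold change, which depends on the prior count, was 12.16 without wild-type replicate 2 and 9.16 without wild-type replicate 1. Dppa5a (chr9:78367052-78368177, minus strand) had 9 and 4 counts in wild-type libraries against 2123 and 1674 in Zfp57-/- libraries, or 1.11 and 0.382 against 228 and 171 CPM. It was low in both wild-type libraries and high in both Zfp57-/- libraries (log2 fold change 8.11 ± 0.39, adjusted p = 1.8e-06, edgeR), with a change of 8.96 without wild-type replicate 1 and 7.47 without wild-type replicate 2. The Dppa5a count is uncertain insofar as reads shared with its near copies Dppa5b and Dppa5c on the same chromosome were dropped as non-unique, and both copies had 0 counts in every library.

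The order of the genes by level was not kept between the genotypes. Per kb of gene model, the level in wild-type cells was 13.7 ± 3.69 CPM per kb for Sall4 (mean ± SD, n = 2), 6.11 ± 2.78 for Klf5 and 1.86 ± 0.0966 for Tbx3, and these 3 genes were separated from each other in both replicates. From Tbx3 down through Dppa5a, Nr5a2, Zfp42, Tfcp2l1 and Esrrb to Klf2 at 0.315 ± 0.0662, each gene overlapped the next within the range of its replicates, and Dppa4 was lowest. In Zfp57-/- cells Dppa5a came first at 322 ± 64.8 CPM per kb, followed by Sall4 at 57.9 ± 4.97 and Klf2 at 48.6 ± 4.29. Esrrb at 39.5 ± 1.08 and Dppa4 at 37.9 ± 2.51 overlapped, and every other pair of neighbours in this order was separated in both replicates, down to Tbx3 at 8.66 ± 1.09. The 3 highest genes of wild-type cells, Sall4, Klf5 and Tbx3, had the 3 smallest fold changes. The wild-type level is also the divisor of the fold change, so the orders are not independent.

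**Figure D2:**
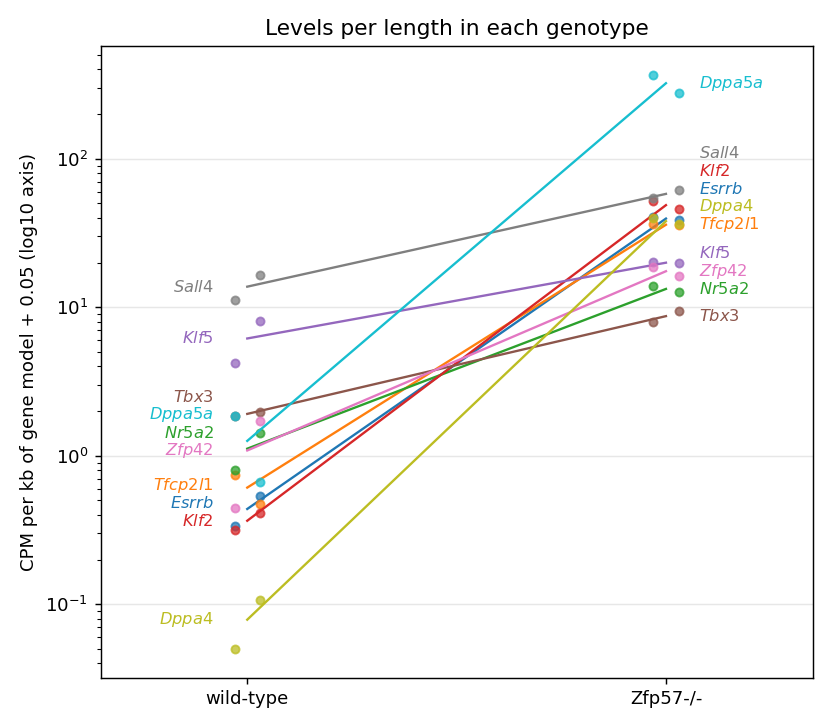
CPM per kb of gene model plus 0.05 (log10 axis) in wild-type and Zfp57-/- cells, with 1 point per library and a line between the genotype means. Sall4, Klf5 and Tbx3 start highest and rise least, and Dppa5a passes from the middle of the order to the top at 322 CPM per kb.

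The other genes of the pluripotency network did not move as 1 block. Of the core factors, Pou5f1 rose from 1 and 6 counts to 2747 and 2286 (log2 fold change 9.41 ± 0.40, adjusted p = 1.7e-06, edgeR), with 10.91 and 8.79 as the highest and lowest values when a library was left out. Nanog had 0 counts in both wild-type libraries against 903 and 938 in Zfp57-/- libraries, at least 596-fold higher against a floor of 3 counts over the wild-type group. Pou5f1 and Nanog entered the test only through their Zfp57-/- counts. Sox2, which neural progenitors also express, had 836 and 1245 against 1343 and 1643 counts and did not pass the test (log2 fold change 0.49 ± 0.19, adjusted p = 0.088, edgeR), although it passed without either wild-type library.

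Of 12 further naive genes, 10 rose and 2, Klf4 and Tet2, did not pass the test, where 13% of all genes tested rose. By wild-type counts alone, Prdm14, Nr0b1, Dppa2, Dppa3, Tcl1, Utf1 and Tdh did not reach the filter of more than 8 counts. They entered the test only through their Zfp57-/- counts, and a fall of these genes could hardly have been seen. The call of Gbx2 was lost on the Actb scale and with either Zfp57-/- library left out, and Tet2 was called higher without wild-type replicate 1 (log2 fold change 0.47) and lower without wild-type replicate 2 (-0.39). The list had a median log2 fold change of 7.87, or 6.60 with the genes of at most 3 wild-type counts set to their bound or ratio, beside -0.01 over all genes. Tdh, a threonine dehydrogenase of ESC metabolism, rose from 3 and 3 to 2348 and 2153 counts, and Nr0b1, a repressor that binds Esrrb and Pou5f1, from 4 and 2 to 481 and 437 counts. Dppa2, the partner of Dppa4, had 0 and 2 counts in wild-type libraries against 453 and 429 in Zfp57-/- libraries, a ratio of 428 with an exact 95% counting interval from 118 to 3542. Prdm14, Dppa3 and Tcl1 had 0 counts in both wild-type libraries and stood in Zfp57-/- cells at least 92.9-fold (Prdm14), 102-fold (Dppa3) and 76.4-fold (Tcl1) higher. Tet2, a 5-methylcytosine dioxygenase, had 1361 and 955 against 1225 and 1229 counts.

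Genes of the formative and primed states, which follow the naive state in development, divided. Of 10, 6 rose (Fgf5, Dnmt3b, Lef1, Etv4, Etv5 and Tcf15), 1 fell (Zic2), and Pou3f1, Otx2 and Dnmt3a did not pass the test. The list median was 1.37, and among all genes tested 13% rose and 14.6% fell. Fgf5, the defining growth factor of the primed epiblast, rose from 2 and 4 to 296 and 386 counts (log2 fold change 6.73 ± 0.39, adjusted p = 4.2e-06, edgeR). It entered the test only through its Zfp57-/- counts. Dnmt3b, a de novo DNA methyltransferase, rose by 3.08 ± 0.22 (adjusted p = 1.3e-05, edgeR). The call of Lef1 was lost with DESeq2 and with either Zfp57-/- library left out.

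The signalling inputs of the network changed less. Of 9 genes of the LIF and Gsk3 pathways, Gsk3b fell by 1.19 on the log2 scale (SE 0.19, adjusted p = 0.0014, edgeR) and Tcf7l1, the repressor of Esrrb and Klf2 in ESCs, rose by 0.88 ± 0.26 (adjusted p = 0.030). The remaining 7, Lifr, Il6st, Jak1, Stat3, Socs3, Ctnnb1 and Tcf7, did not pass the test, and the list median was 0.15. Lifr was called higher under a replicate block. When a library was left out, the log2 fold change ran from 0.0085 to 1.12 for Lifr and from 0.32 to 0.53 for Stat3. It ran from -0.16 to 0.45 for Socs3 and from -0.34 to 0.13 for Ctnnb1. The call of Tcf7l1 was lost with DESeq2, on the Actb scale and with either Zfp57-/- library left out, and that of Gsk3b without Zfp57-/- replicate 1. A rise among the paralogues of the 10 genes was called for Klf6 alone, and Esrrg, Tfcp2, Klf7 and Sall2 fell, of 13 with a median of 0.11. Klf6 was not called on the Actb scale. Sall1 was called higher with upper-quartile scaling, without the filter on low counts and under a replicate block. The 4 falls became 0 without Zfp57-/- replicate 1 and 1 without Zfp57-/- replicate 2. Sall2, a neural spalt factor, had 844 and 1338 counts in wild-type libraries against 476 and 543 in Zfp57-/- libraries, opposite in direction to Sall4. Of all genes tested, 14.6% were lower in Zfp57-/- cells at this threshold.

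**Figure D3:**
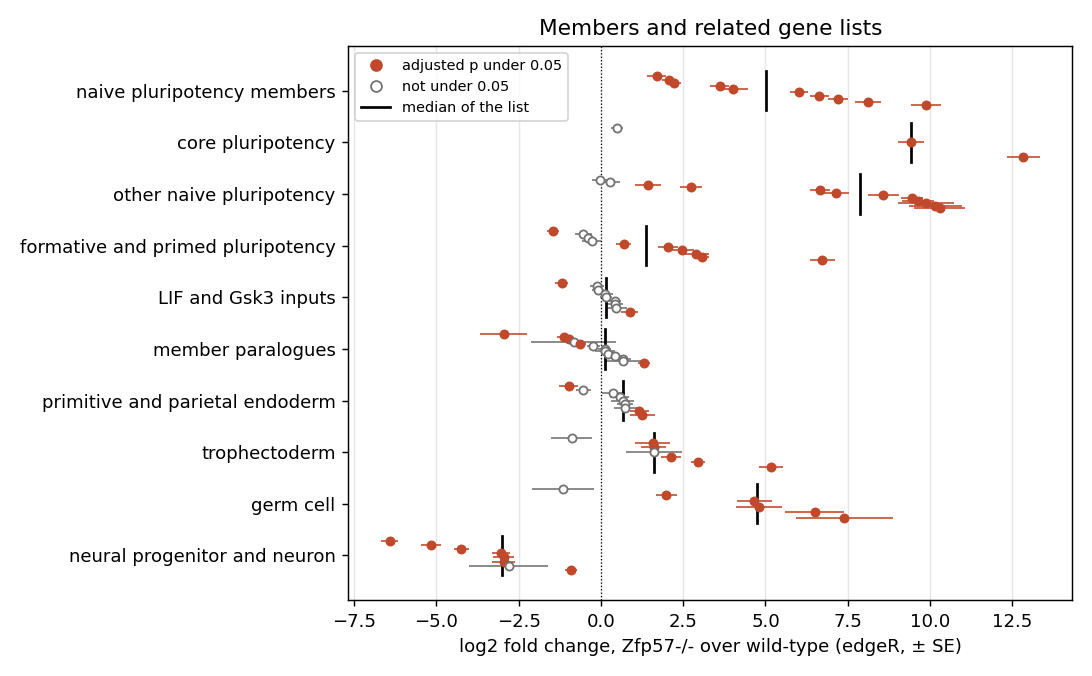
log2 fold change between Zfp57-/- and wild-type cells with its SE (edgeR) for each tested gene of 10 lists, filled red where the adjusted p was under 0.05, with a black line at the list median. The 10 naive genes lie to the right of 0 and the neural genes to the left, and the medians of the LIF and Gsk3 inputs and of the paralogues are 0.15 and 0.11; values of genes without wild-type counts depend on the prior count of the fit.

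Some markers of other cell types also rose or fell in Zfp57-/- cells. Among all genes tested, 13% rose and 14.6% fell. Of 9 primitive and parietal endoderm markers, Dab2 and Sparc rose, Sox7 fell and 6 did not pass the test, including Gata4, Gata6 and Sox17, and the summed level was 3999 and 6510 CPM in wild-type and 7851 and 10988 CPM in Zfp57-/- libraries. None of them was at 0. When a library was left out, the log2 fold change ran from 0.15 to 1.42 for Gata4 and from -0.16 to 1.21 for Gata6. It ran from 0.69 to 2.16 for Sparc, from 0.76 to 1.70 for Dab2 and from -1.04 to -0.94 for Sox7. The calls depended on the processing: on the Actb scale none of the 9 was called. Without the filter on low counts 6 rose and 1 fell. Under a replicate block 7 rose, Gata4, Gata6 and Sox17 among them, and 2 fell. Gata4 had 542 counts in wild-type replicate 1 and 1669 in wild-type replicate 2. By scaled level, 8 of the 10 naive genes, Klf5 and Sall4 among them, were also higher in wild-type replicate 2. These 8 include Dppa4 at 0 and 1 counts and Tbx3, whose wild-type replicates differed only 1.08-fold. The share of all genes that were higher in that library was not computed. Of 8 trophectoderm markers, Eomes, Tfap2c, Gata3, Krt8 and Krt18 rose, Cdx2 and Hand1 did not pass the test and Elf5 was too low to be tested (Gata3 was lost under 6 of 11 alternatives), with sums of 176 and 308 against 1154 and 1356 CPM. Most of the Zfp57-/- sums came from the keratins Krt8 (593 and 724 CPM in Zfp57-/- libraries) and Krt18 (480 and 550 CPM), and Cdx2 was at 3.34 and 19.6 CPM in wild-type against 5.69 and 6.85 CPM. Of 6 germ cell markers, which in part are shared with naive ESCs, Dazl, Ddx4, Prdm1, Sycp3 and Mael rose and Nanos3 did not pass the test. Their sums were 5.70 and 6.30 against 43.1 and 41.7 CPM, Mael being at 0 in both wild-type libraries. Dazl, Ddx4, Sycp3 and Mael entered the test only through their Zfp57-/- counts. The part of these cell types in the levels of Klf5, Sall4 and Tbx3, which endoderm can also express, was not tested.

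Outside these lists, the 5 genes whose values over the 4 libraries lay nearest to the median of the 10 genes were Mt2, Spp1, F2rl1, L1td1 and Spink1, at distances of 0.595 to 1.5 on the log2 scale. Mt2, a metallothionein, had 21 and 46 counts in wild-type libraries against 768 and 668 in Zfp57-/- libraries. L1td1, an RNA-binding protein derived from a LINE-1 element and expressed in ESCs, had 25 and 58 against 1579 and 1770 counts. Likeness in 4 libraries describes the pattern of levels alone.

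Both alleles of the genes could be followed for 7 of the 10. Klf2, Klf5 and Zfp42 had 0 allelic reads in every library and their allelic balance was not analysed here. For the other 7, the level of the JF1 allele and the level of the B6 allele were each higher in both Zfp57-/- than in both wild-type libraries. The allele levels come from the same libraries as the bulk rise of these genes and are no separate support for it. The same share over all genes was not computed. In Zfp57-/- cells, all 7 had enough reads to be tested, and 4 had an allelic difference at an adjusted p of 0.05 (edgeR), 3 toward the maternal JF1 allele and 1 toward the paternal B6 allele. Over the genome, 23.6% of 11005 genes had one.

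Dppa5a had more paternal than maternal reads in both Zfp57-/- libraries, with 308 maternal and 879 paternal reads in replicate 1 and 310 and 664 in replicate 2. The maternal share was 0.289 ± 0.0416 (SD, n = 2), the log2 ratio of the alleles was -1.31 ± 0.10 (adjusted p = 5.2e-24, edgeR), and the median share of its 15 nearest genes was 0.521. The lead of the paternal allele was not seen in the nearest genes, and it remained with an adjusted p of 2.9e-23 when shares were centred on the nearest genes. Wild-type cells gave 7 allelic reads of Dppa5a in all, too few for a test. Dppa4 had 221 maternal and 143 paternal reads in replicate 1 and 214 and 128 in replicate 2, a maternal share of 0.616 ± 0.0131 against 0.489 for its nearest genes. Its log2 ratio was 0.68 ± 0.16 with an adjusted p of 0.00044 by edgeR, and 0.26 by DESeq2, so that its call depends on the test.

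Tfcp2l1 and Nr5a2 both lie on chromosome 1. Tfcp2l1 had 1150 maternal and 535 paternal reads in Zfp57-/- replicate 1 and 1151 and 570 in replicate 2, a maternal share of 0.676 ± 0.00968 (log2 ratio 1.06 ± 0.08, adjusted p = 2.5e-23, edgeR). Nr5a2 had 216 and 126 in replicate 1 and 216 and 99 in replicate 2, a share of 0.659 ± 0.0383 (log2 ratio 0.94 ± 0.17, adjusted p = 1.2e-06 by edgeR and 0.058 by DESeq2). The nearest genes of Tfcp2l1 had a median share of 0.652 and those of Nr5a2 0.637, and chromosome 1 as a whole stood at 0.619 in Zfp57-/- cells beside 0.489 over all autosomes. In wild-type cells the median of chromosome 1 was 0.489. Centred on their nearest genes, Tfcp2l1 and Nr5a2 no longer passed the test (adjusted p = 0.28 and 0.63, edgeR).

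Esrrb, Sall4 and Tbx3 showed no allelic difference that passed the test in Zfp57-/- cells. Esrrb had 970 maternal and 892 paternal reads in replicate 1 and 900 and 914 in replicate 2, a share of 0.509 ± 0.0175 with a Wilson 95% interval of 0.493 to 0.525 for the pooled reads. Sall4 had a share of 0.50 ± 0.0045, with an interval of 0.485 to 0.515. Tbx3 rested on fewer reads, 76 and 104 in replicate 1 and 119 and 111 in replicate 2, and its share of 0.470 ± 0.0673 had an interval of 0.428 to 0.524. The intervals cover counting error only.

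In wild-type cells 5 of the genes had at least 10 allelic reads in both libraries, and none passed the test. edgeR gave 1 of the 5 an unadjusted p under 0.05, Tfcp2l1, and DESeq2 gave none, where 23.4% of 11079 genes were called by edgeR. Tfcp2l1 had 13 maternal and 15 paternal reads in wild-type replicate 1 and 4 and 16 in replicate 2, so that its replicates disagreed (adjusted p = 0.14, and 0.040 without wild-type replicate 1). The difference between the genotypes was itself tested for the same 5 genes, and Tfcp2l1 was called (difference of log2 ratios 1.92 ± 0.42, adjusted p = 0.00013, edgeR), as were 15.4% of 10091 genes. This call was lost without wild-type replicate 2 (adjusted p = 0.15) and on centring with the nearest genes (0.21). Nr5a2 did not pass (difference 0.93 ± 0.42, adjusted p = 0.14, edgeR), nor did Esrrb, Tbx3 and Sall4.

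**Figure D4:**
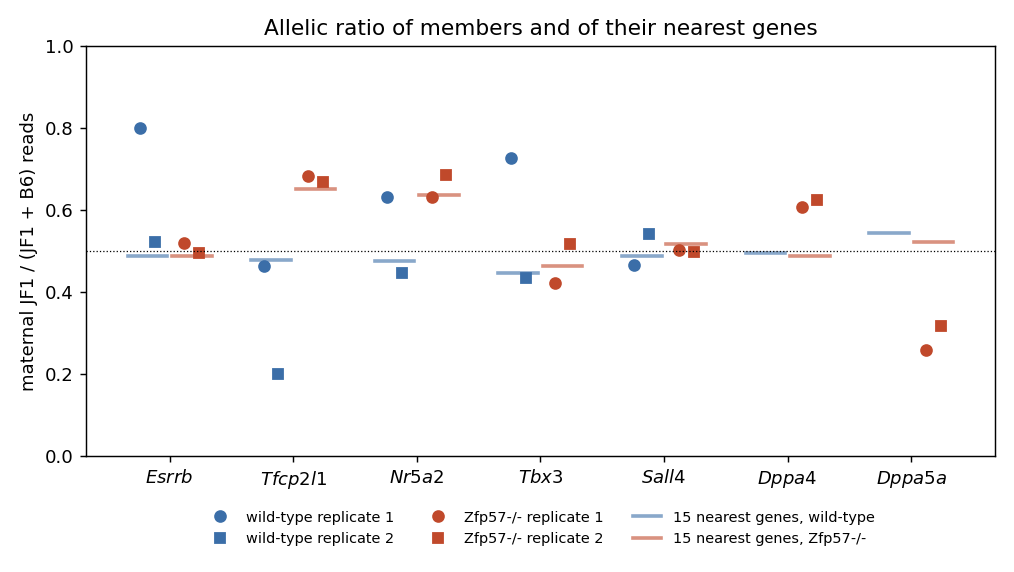
Share of maternal JF1 reads among JF1 and B6 reads (0 to 1) for the 7 genes with allelic reads, 1 point per library with at least 10 such reads, and the median share of the 15 nearest genes of each gene as a line, blue for wild-type and red for Zfp57-/-. Tfcp2l1 and Nr5a2 lie beside the raised line of their nearest genes, while Dppa5a at 0.289 lies below and Dppa4 at 0.616 above theirs.

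Scaling the libraries by Actb in place of TMM moved the median log2 fold change of all genes to -0.68. Actb itself had 14634 and 37665 counts in wild-type libraries against 35070 and 39257 in Zfp57-/- libraries. On that scale 486 genes were higher and 2994 lower, against 2607 and 2915. The 10 naive genes were still higher in Zfp57-/- cells in value, and 9 passed the test, Klf5 being lost (log2 fold change 1.18, adjusted p = 0.097, edgeR).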

How the data were processed

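RNA-seq of 2 wild-type and 2 Zfp57-/- NPC cultures was analysed from 2 deposited tables. The authors trimmed reads with Trimmomatic 0.36, aligned them with STAR 2.5.4a to GRCm38, kept unique alignments, and deposited raw counts of fragments per gene and library, assigned by featureCounts 1.6.0 with strand. For the allele table the authors used a genome masked at strain SNPs and split reads by strain, and deposited counts per gene and allele, without normalization. The exon length in the same tables gave the levels per kb. Gene identifiers were matched to symbols with the GENCODE reference.

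Genotypes were compared with edgeR 4.0.16 (R 4.3.3) by its robust quasi-likelihood test with TMM normalization on genes with more than 8 counts over the 4 libraries, and DESeq2 1.42.0 was an alternative. Benjamini-Hochberg adjusted p-values run over all genes tested, with a threshold of 0.05. CPM use TMM-scaled library sizes. The 8 allele columns were fitted jointly by edgeR, the model holding library terms and, for each genotype, the difference of its alleles, on autosomal genes with at least 10 allelic reads in both libraries of the genotype (all 4 for the difference). Maternal shares are means over replicates, and shares of neighbours are medians over the 15 nearest such genes. p-values measure the spread between 2 cultures per genotype.

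The 10 genes and the gene lists were chosen with earlier results of these data known. Genes named are the 10, those of the lists, the 5 nearest to the median profile by Euclidean distance of log2(CPM + 0.5), Zfp57 and Actb. Plots and intervals used Python 3.11.15, scipy 1.17.1 and matplotlib 3.10.9. Alternatives were other tests, scalings and filters, other read minimums, pooled or centred shares, a replicate block and each library left out. Promoters are RefSeq windows, and genes without one in that table are Tbx3, Klf5, Dppa4, Dppa5a and Sall4. Of the neural list, 1 gene is not reported here by name.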

Additional observations from a re-analysis of the deposited data

Results flagged for a closer look

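The allelic balance of Tfcp2l1 differed between the genotypes by a test of the difference itself, with a difference of 1.92 ± 0.42 in the log2 ratio of maternal to paternal reads (edgeR adjusted p = 0.00013). The maternal share in wild-type libraries was 0.464 of 28 reads and 0.200 of 20 reads, and in Zfp57-/- libraries 0.682 and 0.669. The nearest genes moved from a median of 0.478 to 0.652. Without wild-type replicate 2 the difference was 1.26 (adjusted p = 0.15, edgeR), without wild-type replicate 1 it was 3.02, and centred on the nearest genes it was 0.89 (adjusted p = 0.21).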

How the results depend on the processing

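Over 11 alternatives the log2 fold change of each of the 10 genes kept its direction, and of 110 such values 109 kept their side of the threshold; the exception, Klf5 on the Actb scale, left 9 genes called. Each library left out kept 10 of 10 called, although the number of genes called in the whole table then ran from 2756 to 10005 against 5522, and was 3480 on the Actb scale.

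The 4 allelic differences in Zfp57-/- cells fell to 2 by DESeq2 (Tfcp2l1 and Dppa5a) and to 2 on centring with the nearest genes (Dppa4 and Dppa5a), and were 4 with each library left out. In the whole table DESeq2 called 831 genes against 2598 in Zfp57-/- cells, 1209 against 2590 in wild-type cells and 856 against 1552 for the difference. The count of 0 in wild-type cells ran from 0 to 1 with a library left out, and the count of 1 for the difference from 0 to 1, and was 0 on centring. Pooled reads gave shares and no test.

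Log2 allele ratios that were never called changed sign. On centring this held for Tbx3 (0.051) and Sall4 (-0.10) in Zfp57-/- cells and for the difference of Nr5a2 (-0.014), and under the replicate block for Nr5a2 in wild-type cells (-0.011). With a library left out, Esrrb ran from -0.022 to 0.12, Tbx3 from -0.45 to 0.10 and Sall4 from -0.016 to 0.021 in Zfp57-/- cells. In wild-type cells Tbx3 ran from -0.38 to 1.40, Sall4 from -0.19 to 0.24 and Nr5a2 from -0.31 to 0.77, and the differences of Tbx3 and Sall4 from -1.56 to 0.22 and from -0.24 to 0.19. The cause of these changes was not tested.

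Replicate numbers are not stated to pair the cultures, and the correlation between deviations of libraries that carry 1 number was 0.15 (11736 genes). Under the replicate block 10 of 10 genes were called, 6984 genes were called in the whole table, and the allelic counts were 4, 0 and 1. Depth limits the wild-type side: at most 53 allelic reads of Esrrb, Tfcp2l1, Tbx3 or Nr5a2 were available in a wild-type library.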
